A study of Caenorhabditis elegans with 3 samples.

Results

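Small sets of duplicated Caenorhabditis elegans genes are described here, each with its copies: asb-1 and asb-2, rpl-11.1 and rpl-11.2, and ucr-2.1, ucr-2.2 and ucr-2.3. They were taken by name as 7 genes of mitochondria or ribosomes that have a copy associated with the germ line and a copy associated with the soma, and each was set beside its own copy. The choice was made with the ratios of these arrays known, so the ratios of the members and the differences between copies are given as a description, with no test. Of the 7 genes, 6 had a probe assigned to that gene alone, out of 14686 named genes with a value on all arrays. The exception was ucr-2.1 (VW06B3R.1), for which no probe is named in the annotation used, so ucr-2.3 is compared with ucr-2.2 only.

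The series holds 3 two-colour arrays. One channel carried total RNA from glp-4 larvae at stage L3 (preps 1, 3 and 4, an array each), and the other carried a wild-type mixed reference. Mutants of glp-4, a gene for a valyl-tRNA synthetase, form few germ cells at restrictive temperature; the labels give no allele, temperature or culture details, and the stages pooled in the reference are not stated. Genotype and stage therefore differ together between glp-4 L3 and the reference. The labels do not say whether the preps came from separate cultures, so the p-values reflect the spread among the 3 arrays alone, which could be technical. Values are log2 ratios centred on the median of each array and read as glp-4 L3 over reference; this direction is the likely one, not a stated one, and if it ran the other way every sign here would turn while the sizes and the opposition between copies would stand.

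ATP synthase, the last enzyme of oxidative phosphorylation, makes ATP in the inner mitochondrial membrane, and its b subunit, encoded by asb-1 and asb-2, belongs to the stalk that holds the catalytic head in place. Complex III passes electrons from ubiquinol to cytochrome c and pumps protons; the ucr-2 genes encode a core protein of this complex. The rpl-11 genes encode a protein of the large cytosolic ribosomal subunit. In C. elegans the X chromosome is largely silent in germ cells, and some genes on X have a duplicate on an autosome that is used in the germ line; asb-1 is known as such a germ line form of the b subunit. By the RefSeq annotation of assembly WBcel235, asb-1 and ucr-2.3 lie on chromosome III and rpl-11.1 on chromosome V, whereas asb-2, rpl-11.2, ucr-2.1 and ucr-2.2 lie on X.

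The autosomal copies were low and the X copies high in glp-4 L3. The 9 values of asb-1, rpl-11.1 and ucr-2.3 ran from -2.88 to -1.70, and the 9 values of asb-2, rpl-11.2 and ucr-2.2 ran from 0.19 to 1.59, so the ranges did not overlap. Of the 6 measured members, 5 were past the threshold of the fit across all features (limma, Benjamini-Hochberg adjusted p under 0.05), 3 of them lower and 2 higher, against 16.6% of all 19580 features tested. Since the members were chosen from this contrast, nothing is read from that count. With all preps, 8.26% of features were called higher and 8.37% lower. Leaving out prep 1 gave 16.3% higher and 17.6% lower, leaving out prep 3 gave 0.883% and 1.08%, and leaving out prep 4 gave 3.19% and 3.11%. A further limit of at least 2-fold, on all preps, gave 6.05% in each direction. In whole animals, fewer cells of a type and less RNA per cell cannot be told apart.

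For the b subunit of ATP synthase, asb-1 (F35G12.10) was at -1.89 with prep 1, -1.82 with prep 3 and -1.70 with prep 4. Its copy asb-2 (F02E8.1) was at 1.21, 0.59 and 0.83 on the same arrays. All arrays placed asb-1 low and asb-2 high. The means were -1.81 ± 0.10 for asb-1 and 0.88 ± 0.31 for asb-2 (SD, n = 3 arrays), a 3.49-fold lower and a 1.84-fold higher ratio in glp-4 L3. Taken array by array, asb-1 minus asb-2 was -3.10, -2.42 and -2.53 log2 units with preps 1, 3 and 4, a mean of -2.68 ± 0.37 that corresponds to a 6.43-fold difference between the ratios. The gap was widest with prep 1, where asb-2 was highest.

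The ribosomal pair was split in the same way. rpl-11.1 (T22F3.4) was at -2.45, -2.29 and -2.48 with preps 1, 3 and 4. rpl-11.2 (F07D10.1) was at 0.62, 1.19 and 1.02 on the same arrays. These values put rpl-11.1 low and rpl-11.2 high on every array, with no overlap. The means were -2.41 ± 0.10 for rpl-11.1 and 0.94 ± 0.30 for rpl-11.2 (SD, n = 3), and rpl-11.1 minus rpl-11.2 was -3.07, -3.48 and -3.50, a mean of -3.35 ± 0.25. Counted from the lowest, the mean of rpl-11.1 was rank 182 among the 14686 named genes, with ucr-2.3 at rank 205 and asb-1 at rank 369.

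For complex III, ucr-2.3 (T24C4.1) was at -1.72 with prep 1, -2.29 with prep 3 and -2.88 with prep 4. ucr-2.2 (T10B10.2) was at 1.08, 0.19 and 1.59. The copies were on opposite sides of the array median each time, with ucr-2.2 close to it with prep 3. The means were -2.3 ± 0.58 for ucr-2.3 and 0.95 ± 0.71 for ucr-2.2 (SD, n = 3). The difference was -2.8, -2.48 and -4.47 with preps 1, 3 and 4, with a mean of -3.25 ± 1.07 (9.53-fold), and prep 4 set most of its spread. Without prep 4 the mean difference was -2.64. The member that missed the threshold of the fit was ucr-2.2.

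**Figure D1:**
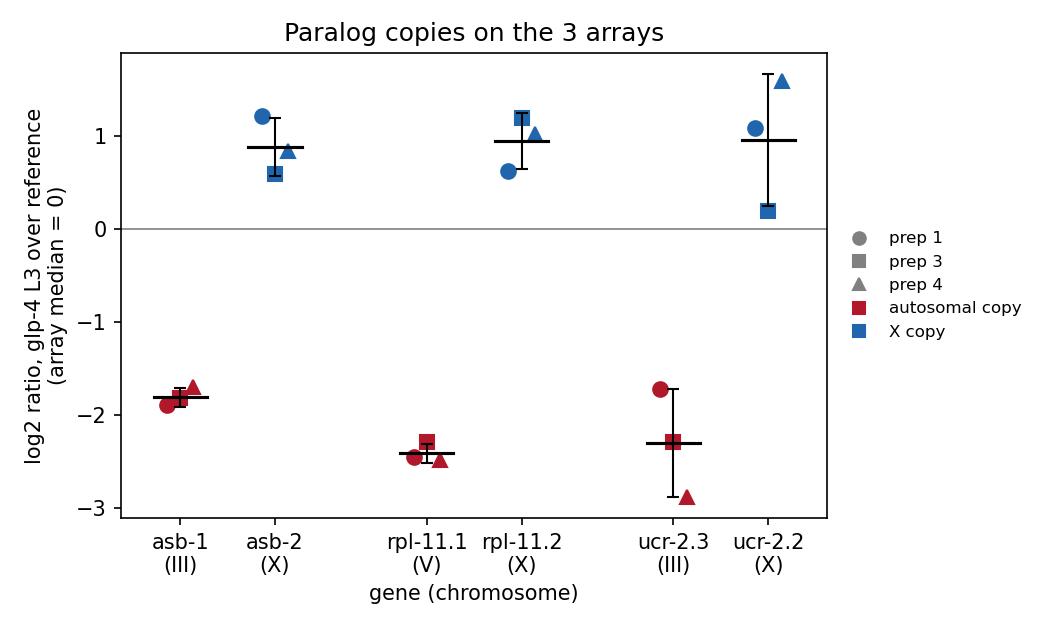
Centred log2 ratio of glp-4 L3 over reference (vertical axis) for the 6 measured copies (horizontal axis, chromosome in brackets), with 1 symbol per prep, a bar for the mean and whiskers for the SD of 3 arrays. The autosomal copies sit between -2.88 and -1.70, and the X copies between 0.19 and 1.59.

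The order of the means from low to high was rpl-11.1, ucr-2.3, asb-1, asb-2, rpl-11.2 and ucr-2.2. Within the autosomal copies, rpl-11.1 and ucr-2.3 overlapped across arrays, and so did ucr-2.3 and asb-1. Every value of rpl-11.1 was below every value of asb-1. The means of the 3 X copies lay between 0.88 and 0.95, closer to each other than the SD of any of them. The arrays differ in their overall spread of log2 ratios, with an SD over probes of 0.71, 0.963 and 1.139 with preps 1, 3 and 4, so the place of a gene among the named genes of its array was also noted. asb-1 stood at percentile 1.47, 2.85 and 4.67 with preps 1, 3 and 4, rpl-11.1 at 0.746, 1.71 and 1.95, and ucr-2.3 at 2.01, 1.71 and 1.37. The X copies ranged more widely, from percentile 59.8 for ucr-2.2 with prep 3 to percentile 95.4 for asb-2 with prep 1.

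Letters in the array titles, read as an array series, set preps 3 and 4 together and prep 1 apart, and the array of prep 1 was less like the others (Pearson r over probes 0.645 with prep 3 and 0.599 with prep 4, against 0.835 between preps 3 and 4). With preps 3 and 4 alone, the mean differences between copies were -2.47 for asb-1 minus asb-2, -3.49 for rpl-11.1 minus rpl-11.2 and -3.48 for ucr-2.3 minus ucr-2.2. With prep 1 alone they were -3.10, -3.07 and -2.8 in the same order. The opposition of the copies was thus present in both array series. Prep 1 is the lone array of its series, so there is no spread within it. The ends of the titles, which have the form of dates, split the arrays in the same way. Series, date and prep cannot be told apart.

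Markers of tissues gave the setting in which the copies were measured. The marker lists, like the lists of machinery below, were chosen with earlier results of these data known. Their shares are therefore a description only. Of 21 measured germ cell markers, 20 were lower in glp-4 L3 and none was higher (limma adjusted p under 0.05), or 95.2% lower against 8.37% of all features. At an unadjusted limma p under 0.05 all 21 were lower. The share of all features at this unadjusted limit was not counted, here or for the lists below. Nothing is read from such counts. Their median was -2.61, with list medians of -2.8, -2.57 and -2.8 with preps 1, 3 and 4. The means ran widely, from -4.62 to -0.68. The list includes genes of oocytes, so genotype and stage cannot be told apart in its median. Germline genes were part of the reason for the chosen direction of the ratio, so their side is not independent evidence. All 8 body muscle markers and all 8 intestine markers were higher, against 8.26% of all features, with medians of 1.53 and 2.43. Of 8 hypodermis markers 3 were higher (37.5%, median 0.97), and at an unadjusted limma p under 0.05 there were 3 higher and 1 lower. Of 8 neuron markers none passed in either direction (1 was lower and none higher at an unadjusted limma p under 0.05, with a median of -0.33). The autosomal copies thus lay on the side of the germ cell markers. The X copies lay on the side of the medians of muscle, intestine and hypodermis, which does not single out a tissue. The part of each tissue in the values of the copies was not tested. The labels germline and somatic could not be checked on isolated tissue here, because every array carried RNA of whole animals.

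The other genes of each machinery show where the copies stand among their partners. ATP synthase was represented by 13 measured genes besides asb-1 and asb-2, counting the inhibitor genes mai-1 and mai-2. Of these, 5 were higher in glp-4 L3 and none was lower, or 38.5% higher against 8.26% of all features. With an unadjusted limma p under 0.05, 9 had a mean above 0 and none a mean below 0. The share of all features at that limit was not counted. The median of the 13 was 0.64, against 0.00 over all features. Those named by rule were hpo-18 (0.80 ± 0.22, adjusted p = 0.0374), which encodes the epsilon subunit, R04F11.2 (0.75 ± 0.24, adjusted p = 0.0473), mai-2 (0.72 ± 0.19, adjusted p = 0.0463) and atp-1 (0.68 ± 0.10, adjusted p = 0.0453), which encodes the catalytic head's alpha subunit. These calls were close to the threshold and depended on the preps. Without prep 1, 7 were higher, against 16.3% of all features. Without prep 3 or without prep 4 none was, against 0.883% and 3.19% of all features. asb-1 was below all 13 genes on every array, and its mean differed by -1.53 log2 units from that of the lowest of them, mai-1 at -0.28 ± 0.16. asb-2, at 0.88, was above the mean of all 13 by a margin of 0.08 over hpo-18, which is less than its own SD. It was above 13 of the 13 with prep 1 and 12 with prep 4, but above only 5 with prep 3.

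A second numbered pair of this enzyme had the same order of copies, with both above the array median. The genes asg-1 (K07A12.3) and asg-2 (C53B7.4) encode the g subunit. asg-1, on chromosome I, was at 0.05, 0.22 and 0.20 with preps 1, 3 and 4, and asg-2, on X, was at 0.50, 0.68 and 0.73. The autosomal copy was below the X copy on every array, with means of 0.15 ± 0.09 for asg-1 and 0.64 ± 0.13 for asg-2 (SD, n = 3), and neither passed the threshold (limma adjusted p = 0.515 and 0.0558). This pair was picked out after its values were seen. The inhibitor genes, picked out in the same way, had the opposite order. mai-1, on X, was at -0.28 ± 0.16 and mai-2, on chromosome IV, at 0.72 ± 0.19, with the X copy below the autosomal copy on every array.

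In complex III with cytochrome c, 3 of 9 measured genes besides the ucr-2 members were higher and none was lower. That is 33.3% higher against 8.26% of all features, with a list median of 0.49. At an unadjusted limma p under 0.05 there were 5 above 0 and 1 below 0, with no share of all features counted. The higher genes were T02H6.11 (0.96 ± 0.12, adjusted p = 0.0186), R07E4.3 (0.75 ± 0.18, adjusted p = 0.0398) and ucr-1 (0.68 ± 0.10, adjusted p = 0.0464), which encodes the other core protein. Without prep 1 there were 4 higher and 2 lower, against 16.3% and 17.6% of all features. Without prep 3 or prep 4 there were none in either direction. Of all features, 0.883% were higher and 1.08% lower without prep 3, and 3.19% and 3.11% without prep 4. ucr-2.3 was below all 9 genes on every array. The nearest to it was the cytochrome c gene cyc-2.2 (ZC116.2), at -0.26, -1.37 and -1.63 with preps 1, 3 and 4, a mean of -1.09 ± 0.73 that did not pass (limma adjusted p = 0.0671). Its partner cyc-2.1 (E04A4.7) was at 0.13, 0.64 and 0.44. The cytochrome c genes lay on opposite sides of the array median on every array, least far apart with prep 1; both are on autosomes, cyc-2.2 on V and cyc-2.1 on IV, and they were picked out after their values were seen.

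The remaining respiratory complexes lay on the side of the X copies. Of 20 measured subunits of complexes I, II and IV, 5 were higher and none was lower (25.0% higher against 8.26% of all features). At an unadjusted limma p under 0.05 there were 12 above 0 and 1 below 0, with no share of all features counted. The median was 0.62, and 19 of the 20 means were above 0. The complex I genes gas-1 (1.33 ± 0.41), nuo-1 (1.02 ± 0.25) and nuo-4 (0.87 ± 0.13) and the cytochrome oxidase gene cox-6C (0.85 ± 0.25) were the highest. Without prep 1 there were 11 higher (16.3% of all features), and none without prep 3 (0.883% of all features) or prep 4 (3.19%). The lowest was sdha-2 (C34B2.7), the chromosome I copy of the flavoprotein of complex II, at -0.42, which did not pass (limma adjusted p = 0.126). Its copy sdha-1 (C03G5.1) is on X and was at 0.81 ± 0.17, past the threshold (adjusted p = 0.0329); this pair too was picked out after its values were seen.

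**Figure D2:**
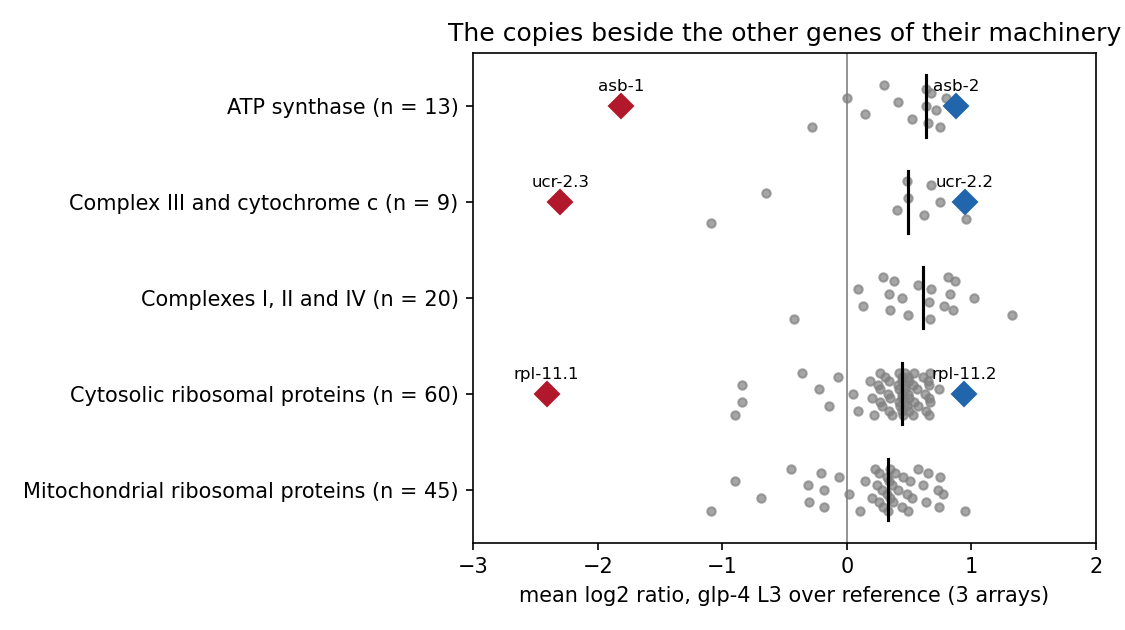
Mean centred log2 ratio over 3 arrays (horizontal axis) of the copies, as red diamonds for autosomal and blue diamonds for X copies, and of the other measured genes of each complex or ribosome (rows), as grey points with a line at the list median. The autosomal copies asb-1 (-1.81), ucr-2.3 (-2.3) and rpl-11.1 (-2.41) lie below every other gene of their own row.

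Cytosolic ribosomal protein genes formed a narrow group. Of 60 measured besides the rpl-11 genes, none was higher and 1 was lower past the threshold, against 8.26% higher and 8.37% lower of all features. At an unadjusted limma p under 0.05 there were 26 above 0 and 1 below 0, with no share of all features counted. The median was 0.44 and 53 of the 60 means were above 0, with list medians of 0.18, 0.64 and 0.46 with preps 1, 3 and 4. Without prep 1 there were 18 higher and 3 lower, against 16.3% and 17.6% of all features. None was called in either direction without prep 3 or prep 4. Of all features, 0.883% were higher and 1.08% lower without prep 3, and 3.19% and 3.11% without prep 4. The lower gene was rpl-42 (-0.84 ± 0.04, limma adjusted p = 0.0247). rpl-11.1 was below all 60 on every array, and its mean differed by -1.51 log2 units from that of the lowest, the ubiquitin fusion gene ubq-2 at -0.90. The value of ubq-2 rested on preps 3 and 4 (-1.56 and -1.49, against 0.35 with prep 1). The mean of rpl-11.2 was above all 60; it was above 60 of them with preps 3 and 4 and above 59 with prep 1.

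Ribosomal proteins of mitochondria were checked as the organelle's own counterpart. Of 45 measured, 1 was higher and 2 were lower, against 8.26% and 8.37% of all features, and the median was 0.33. The higher gene was mrpl-12 (0.95 ± 0.36) and the lower ones were mrps-11 (-1.09 ± 0.19) and mrpl-37 (-0.90 ± 0.14). Without prep 1 there were 15 higher and 4 lower, against 16.3% and 17.6% of all features. None was called in either direction without prep 3 or prep 4. Of all features, 0.883% were higher and 1.08% lower without prep 3, and 3.19% and 3.11% without prep 4. None of the 45 means was as low as that of any autosomal copy.

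Position on X was not itself used to choose the copies, and the arrays were examined for it. It is not independent of that choice, because the germline and somatic labels are tied to the silence of X in germ cells. Of named genes on autosomes, 8.76% were higher and 9.47% lower in glp-4 L3, with a median log2 ratio of 0.01 over 12481 genes. Of 2203 named genes on X, 14.5% were higher and 4.45% lower, and their median was 0.19. Chromosome I had the largest share of lower genes (12.2%) and the smallest share of higher ones (6.18%). On chromosomes III and V, which hold the autosomal copies, the balance differed: on III 147 of 1892 genes were higher and 190 lower, and on V 383 of 3780 (10.1%) were higher and 270 (7.14%) lower. The median on V was 0.09. The medians of autosomal and X genes were -0.02 and 0.10 with prep 1, 0.01 and 0.19 with prep 3, and 0.01 and 0.26 with prep 4, so the X genes were the higher group on every array. Genes of a chromosome are not independent, and no test was made.

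**Figure D3:**
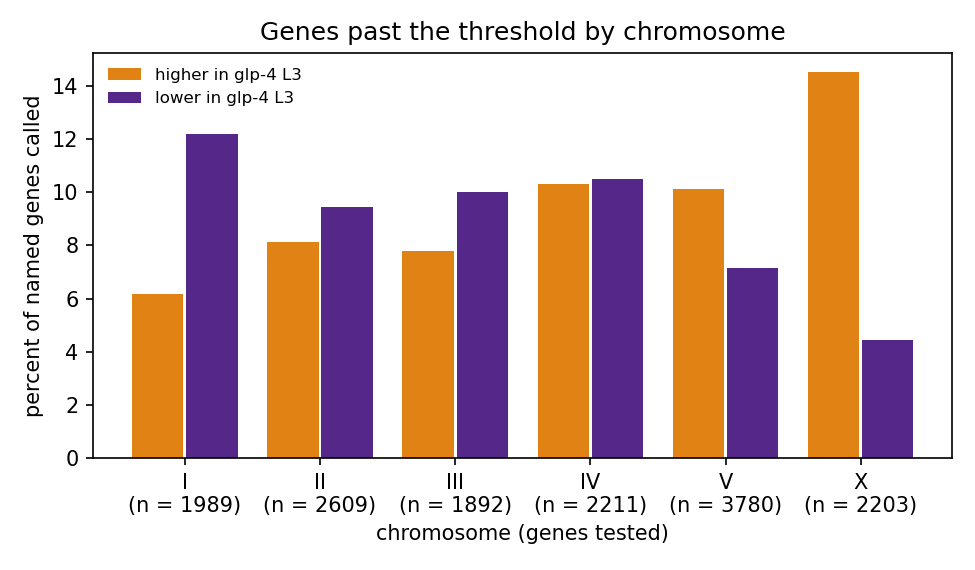
Percent of named genes past the threshold (vertical axis; limma adjusted p under 0.05) that were higher (left bars) or lower (right bars) in glp-4 L3, by chromosome (horizontal axis, with the number of genes tested). On X the higher share (14.5%) exceeds the lower (4.45%), and on chromosome I the order is the opposite (6.18% and 12.2%).

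The same split was then followed in duplicated genes that were not picked for their ratios. These were all sets of genes whose names differ only in the last number after a dot, with a measured copy on an autosome and one on X, leaving out the members. There were 24 such sets, and the names alone do not establish how closely the copies are related. The mean of the autosomal copies was below that of the X copies in 20 of the 24 (83.3%), and in 16 sets it was below on all 3 arrays. In the other 4 sets it was above, on all 3 arrays each time. The median of autosomal minus X was -0.83 over the sets. It was -0.41, -0.69 and -1.09 with preps 1, 3 and 4, with 18, 19 and 19 sets below 0. The median of all autosomal genes minus that of all X genes, an unlike measure, was -0.19. How often unrelated autosomal and X genes have the same order was not counted. The differences of the member sets, -2.68, -3.35 and -3.25, were near or beyond the lowest of the 24, which was -2.77; the members were chosen with these values known.

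A pair in this series with opposite calls on its copies was slc-25A18, named as a mitochondrial carrier of the solute carrier family. slc-25A18.2 (F55G1.5), on chromosome IV, was at -1.28, -1.04 and -1.01 with preps 1, 3 and 4, and slc-25A18.1 (F20D1.9), on X, was at 1.35, 2.0 and 1.63. The autosomal copy was lower (-1.11 ± 0.14, limma adjusted p = 0.0128) and the X copy higher (1.66 ± 0.33, adjusted p = 0.00721) in glp-4 L3, with no overlap between them. The zinc transporter genes zipt-7.1 (-1.58 ± 0.03, adjusted p = 0.00522), on IV, and zipt-7.2 (1.06 ± 0.25, adjusted p = 0.0184), on X, were likewise called in opposite directions. The 3 values of zipt-7.1 ran only from -1.61 to -1.55. In the mfsd-8 set, with 3 autosomal copies and 1 on X, the difference was -1.73, with the X copy mfsd-8.5 at 1.89 ± 0.42 and the autosomal copies averaging 0.16. Of these, mfsd-8.1 was at -3.62 with prep 1 but at -0.65 and -0.94 with preps 3 and 4, and did not pass, whereas mfsd-8.2 was higher (1.06 ± 0.53, adjusted p = 0.0417) and mfsd-8.4 was at 1.16 ± 1.52 without passing.

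The 3 largest differences in the other direction were those of acox-1 (2.33), snrp-40 (1.20) and slc-17 (0.60). The acyl-CoA oxidase genes acox-1.1 to acox-1.5, which act in peroxisomal fatty acid oxidation, were all higher, with means between 2.09 and 2.95, against 0.22 ± 0.19 for the X copy acox-1.6. The snrp-40 genes, named for a small nuclear ribonucleoprotein, were both low, at -1.19 ± 0.78 for snrp-40.2 on chromosome I and -2.39 ± 0.29 for snrp-40.1 on X. There the X copy was called lower (limma adjusted p = 0.00345) and the autosomal copy did not pass (adjusted p = 0.0608). The slc-17 transporters had 7 autosomal copies averaging 0.89 and 2 X copies averaging 0.29.

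Another ribosomal pair among the 24 sets is the closest counterpart of rpl-11, and was picked out after its values were seen. rpl-23A.2 (F52B5.6), on chromosome I, was at -0.58, -0.09 and -0.39 with preps 1, 3 and 4, and rpl-23A.1 (F55D10.2), on X, was at 0.59, 0.46 and 0.53. The copies did not overlap, with the autosomal copy at -0.36 ± 0.25 and the X copy at 0.53 ± 0.07 (SD, n = 3), but neither passed the threshold (limma adjusted p = 0.214 and 0.0809). The gap of -0.88 between them was smaller than the -3.35 of the rpl-11 pair.

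**Figure D4:**
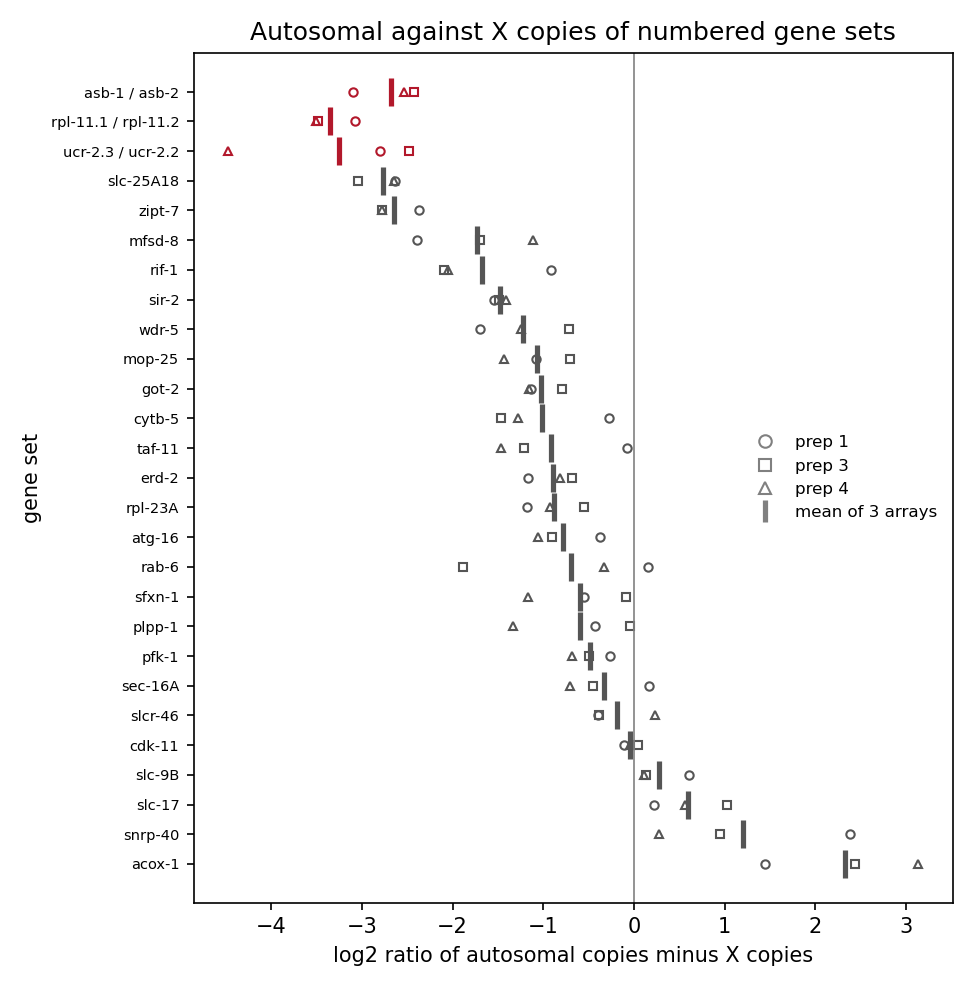
Log2 ratio of autosomal copies minus X copies (horizontal axis) for the 3 chosen pairs (red, top) and the 24 other numbered sets (grey, ordered by mean); open symbols are single preps and vertical bars the mean of 3 arrays. The means of 20 of the 24 sets lie below 0, and those of the chosen pairs are -2.68, -3.35 and -3.25.

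Likeness to the members was measured as the Euclidean distance between genes over the 3 centred log2 ratios, and the 3 nearest named genes of each were noted. With only 3 arrays this likeness is a description of level, and many genes can share it by level alone. Within a distance of 0.5 there were 71 named genes for asb-1, 18 for rpl-11.1 and 26 for ucr-2.3, and 115 for asb-2, 551 for rpl-11.2 and 11 for ucr-2.2. Nearest to rpl-11.1 were the kinetochore gene kbp-1 (distance 0.12), sss-1 (0.17) and zim-1 (0.19), whose zinc finger protein acts in homolog pairing at meiosis. Nearest to asb-1 were lin-54 (0.13), which encodes the DNA-binding subunit of the DREAM repressor complex, the linker histone variant gene hil-3 (0.13) and C30G12.6 (0.14). Nearest to ucr-2.3 were the cuticle collagen gene col-116 (0.13), the sperm chromatin gene spch-1 (0.19) and immt-2 (0.19), which encodes a mitofilin-like protein of the inner mitochondrial membrane. immt-2 (W06H3.1) was at -1.76, -2.33 and -2.70 with preps 1, 3 and 4, beside -1.72, -2.29 and -2.88 for ucr-2.3.

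The nearest genes of the X copies were at moderate levels. For rpl-11.2 they were F23F1.4 (0.04), the mitochondrial peroxiredoxin gene prdx-3 (0.07) and T25B9.9 (0.08). For asb-2 they were fkb-1 (0.13), of the FK506-binding proline isomerases, the chemoreceptor-class gene srh-261 (0.18) and T23E7.2 (0.18). For ucr-2.2 the nearest were farther away: the bestrophin gene best-15 (0.30), R160.3 (0.30) and the glucuronosyltransferase gene ugt-34 (0.31).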

How the data were processed

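The authors deposited a table of log2 ratios for 21632 probes on 3 arrays. Per the deposited numbers, every value under 0 on these arrays (100%) is the log2 of a ratio rounded to 3 decimals (tolerance 0.01 thousandths). How the arrays were scanned, background-corrected and normalized is not stated, and intensities were not used, so probes close to background could not be told; the number of arrays limits the precision. Per the labels, channel 1 held the reference and channel 2 held glp-4 L3, with no dye named. The direction was read as channel 2 over channel 1 because that is the common form and because germline genes then lie low in a germline-poor mutant.

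A platform annotation gave 1 gene for 16450 probes, several for 247 and none for 4935; 16360 matched RefSeq (WBcel235) by gene number and 8 by accession, and 82 kept their older name. The probes come with no genome build, so coordinates are left out. Each measured member has 1 probe, and the only probe of glp-4 is shared with another gene. Whether a probe of one copy also binds RNA of the other was not tested.

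Arrays were centred on their medians and probes of a gene averaged. The mean of 19580 features with a value on all 3 arrays was tested against 0 with limma (version 3.58.1, R 4.3.3; lmFit, eBayes) and Benjamini-Hochberg adjustment at 0.05. The labels do not say whether the same reference RNA was used on every array. How far its own spread enters the ratios is therefore not known. On simulated data with 19580 features and 200 changed, the fit found 1.5% of changes of 1 log2 unit, 54.8% of 2, 75.8% of 3 and 87% of 4, with 2.6% of calls false. In the data 3255 features (16.6%) were called, far more than were changed in the simulation, so these rates need not hold for the data.

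Members and lists were chosen with earlier results of these data known. Genes named beside the members are the 3 nearest to each by distance, up to 4 genes past the threshold per list in its main direction and 2 in the other (for tissue markers only counts are given), and the 3 numbered sets with the largest difference in each direction; others are said to be picked later.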

Additional observations from a re-analysis of the deposited data

How the results depend on the processing

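No direction of a member or of a difference between copies changed under any alternative tried (values as deposited, arrays scaled to equal median absolute deviation, quantile normalization, features on at least 2 arrays, each probe alone, or each prep left out). Most of these could not have changed it. Each measured member has 1 probe with a value on every array, so each probe alone and features on at least 2 arrays left its values as they were. Every member and every difference had the same sign on all 3 arrays, so leaving out a prep or rescaling an array could not turn its mean. Without one prep, asb-1 minus asb-2 lay between -2.82 and -2.47, rpl-11.1 minus rpl-11.2 between -3.49 and -3.28, and ucr-2.3 minus ucr-2.2 between -3.64 and -2.64. The median over the 24 numbered sets lay between -0.86 and -0.75 without one prep and between -0.83 and -0.73 under the other alternatives, with 20 sets below 0 each time. The spread of single members between preps depended on the scaling: the SD of asb-1, rpl-11.1 and ucr-2.3 was 0.10, 0.10 and 0.58 with median centring, 0.90, 1.11 and 0.36 with equal median absolute deviation, and 0.54, 0.56 and 0.15 with quantile normalization. Counts of called genes depended on the preps: without one prep, all features gave 174 to 3211 higher and 212 to 3464 lower, with 0.883% higher and 1.08% lower called without prep 3, and 16.3% and 17.6% without prep 1. Higher counts then were 0 to 7 for ATP synthase, 0 to 4 for complex III, 0 to 11 for complexes I, II and IV, 0 to 18 for cytosolic and 0 to 15 for mitochondrial ribosomal proteins; lower counts were 0 to 2 for complex III, 0 to 3 for cytosolic and 0 to 4 for mitochondrial ribosomal proteins. With a limit of at least 2-fold, higher counts were 0 for ATP synthase, 0 for complex III, 2 for complexes I, II and IV and 0 for mitochondrial ribosomal proteins, and lower counts were 0 for cytosolic and 1 for mitochondrial ribosomal proteins; this limit only removes calls. Equal median absolute deviation gave 1 higher gene for ATP synthase and 1 for cytosolic ribosomal proteins, quantile normalization gave 1 lower for complex III and 5 higher for cytosolic ribosomal proteins, and the robust variance prior gave 1 higher for the last; the cause was not tested. No paired analysis was possible because there is a single group of arrays. Signal over background was not known for any probe, and 3 arrays leave 2 residual degrees of freedom per feature.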

Other observations

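Genes next to the copies on the chromosome, by the order of protein-coding genes in WBcel235, mostly did not share their ratios. Beside asb-1, the cell cycle gene apc-11 was at -0.27 ± 0.50 without passing, and sel-2 was higher at 0.99 ± 0.43 (SD, n = 3; limma adjusted p = 0.0374). Beside rpl-11.1, the glycogen phosphorylase gene pygl-1 was at -0.21 ± 0.24 and T22F3.2 at -0.45 ± 0.29, and neither passed. Beside ucr-2.3, T24C4.5 was at -1.35, -1.17 and -1.77 with preps 1, 3 and 4 and was lower (-1.43 ± 0.31, adjusted p = 0.01), whereas zer-1 on the other side was at 0.30 ± 0.20. Of the neighbours of the X copies, the vacuolar proton pump gene vha-15, next to rpl-11.2, was higher (1.32 ± 0.16, adjusted p = 0.00867), and the collagen gene col-41, next to ucr-2.2, was at -0.37 with prep 1 but at 1.57 and 1.80 with preps 3 and 4. The neighbours of asb-2, nmur-3 (0.16 ± 0.01) and ncr-1 (0.29 ± 0.26), were near the array median. The unmeasured ucr-2.1 has neighbours at 0.05 ± 0.11 (nmat-1) and -0.01 ± 0.35 (B0198.2).

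Among the other numbered sets, the mitochondrial aspartate aminotransferase genes were picked out after their values were seen. got-2.1, on chromosome I, was at -1.25, -1.23 and -2.07 with preps 1, 3 and 4 and was lower (-1.52 ± 0.48, limma adjusted p = 0.0135), while got-2.2, on X, was at -0.11, -0.44 and -0.91 (-0.48 ± 0.40) and did not pass. Unlike the ATP synthase and complex III pairs, both copies were below the array median. The sirtuin genes of mitochondria sir-2.2 and sir-2.3, both on X and also picked out after their values were seen, differed from each other, at 1.57 ± 0.54 and 0.09 ± 0.26, with their autosomal relative sir-2.1 at -0.65 ± 0.30.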
